A study of Mus musculus with 12 samples.

Results

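The genes described are Sprr1a, which encodes a small proline-rich protein of the cornified envelope, and the keratins Krt7, Krt8, Krt18 and Krt19 of simple epithelia. They were found by symbol among the 24770 genes of the expression table: 4 of the 5 had a row, and 2, Sprr1a and Krt19, reached the level needed for a test. The 5 were chosen by the measured levels in these libraries: Sprr1a and Krt19 were higher under hypoxia, and Sprr1a was blocked by MLN4924. Differences of Sprr1a between any of the groups, and those of Krt19 with oxygen or under hypoxia, are therefore given as descriptions and carry no p-value. RNA was sequenced from GC-2 cells, a mouse line labelled as type B spermatogonia of genotype WT, in 12 libraries, 3 in each of 4 groups. The groups were DMSO under normoxia, DMSO under hypoxia, MLN4924 under normoxia and MLN4924 under hypoxia. All were kept for 24 h in medium with serum, MLN4924 was given at 1 µM, DMSO was its solvent control, and hypoxia was 1% O2. MLN4924 blocks the NEDD8-activating enzyme, so that cullins stay without NEDD8 and cullin-RING ubiquitin ligases lose activity. Replicates are described as biological in the submitters' design, without saying whether cultures were separate. The p-values measure only the spread between libraries within groups, estimated jointly over the 4 groups. The cell line label and the titles name GC-2 throughout, whereas the cell type label counts upward from sample to sample; the identity of the cells was not tested.

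Small proline-rich proteins are cross-linked by transglutaminases into the envelope under the membrane of keratinocytes, and Sprr1a is also known from rodents as a gene switched on in injured neurons and stressed cardiac muscle. Keratins build intermediate filaments from pairs of 1 type I and 1 type II chain; Krt18 and Krt19 are type I, and Krt7 and Krt8 are their usual type II partners. In the testis Krt8 and Krt18 are known from immature Sertoli cells. Transcription of many stress-response genes is driven by AP-1, a dimer of Jun and Fos family proteins, and hypoxia acts through the HIF factors, which bind short ACGTG or GCGTG motifs.

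The promoters of the Sprr genes are shown because Sprr1a and several of its Sprr2 relatives were lower with MLN4924, while Sprr1b was near 0 in every group. Each sequence holds 250 bases before and 50 after the start of the gene, from RefSeq on GRCm38.p6, written 5′ to 3′ on the gene's strand. Capitals mark matches to the AP-1 letters TGANTCA and to the TATA letters TATAAA, searched on both strands. The regions are chr3:92485832-92486131 (minus strand) for Sprr1a, chr3:92438730-92439029 (minus strand) for Sprr1b, chr3:92385435-92385734 (plus strand) for Sprr2h and chr3:92250397-92250696 (plus strand) for Sprr2a2.
Sprr1a: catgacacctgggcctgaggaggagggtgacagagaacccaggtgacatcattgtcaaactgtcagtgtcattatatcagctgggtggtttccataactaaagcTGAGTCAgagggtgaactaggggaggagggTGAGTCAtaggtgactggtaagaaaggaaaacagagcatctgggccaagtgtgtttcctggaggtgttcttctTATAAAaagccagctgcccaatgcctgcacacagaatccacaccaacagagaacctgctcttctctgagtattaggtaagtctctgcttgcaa
Sprr1b: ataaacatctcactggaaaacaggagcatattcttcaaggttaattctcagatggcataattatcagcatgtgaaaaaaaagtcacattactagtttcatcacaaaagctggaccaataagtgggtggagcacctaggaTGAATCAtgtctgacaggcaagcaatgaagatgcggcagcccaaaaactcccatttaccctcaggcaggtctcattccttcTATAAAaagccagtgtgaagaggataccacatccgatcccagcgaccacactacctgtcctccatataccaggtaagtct
Sprr2h: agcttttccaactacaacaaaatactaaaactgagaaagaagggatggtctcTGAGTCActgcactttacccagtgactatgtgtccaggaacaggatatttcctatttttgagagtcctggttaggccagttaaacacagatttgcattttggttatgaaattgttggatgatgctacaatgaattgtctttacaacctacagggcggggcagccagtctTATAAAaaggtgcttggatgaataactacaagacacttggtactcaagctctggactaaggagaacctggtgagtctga
Sprr2a2: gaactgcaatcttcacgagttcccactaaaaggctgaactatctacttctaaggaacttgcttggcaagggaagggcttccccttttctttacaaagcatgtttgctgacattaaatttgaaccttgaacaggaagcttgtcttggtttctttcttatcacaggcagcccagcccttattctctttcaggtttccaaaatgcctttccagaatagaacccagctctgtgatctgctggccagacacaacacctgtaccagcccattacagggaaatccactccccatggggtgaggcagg
The Sprr1a window held 2 AP-1 matches, the first at -146 to -140 and the other at -116 to -110 from the start, and a TATA match at -43 to -38. Sprr1b had a single AP-1 match at -111 to -105 and a TATA match at -30 to -25. Sprr2h had a single AP-1 match at -198 to -192 and a TATA match at -29 to -24. The Sprr2a2 window held neither, and it was identical to that of Sprr2a1, with 0 differing bases. Its last 40 bases differed in 4 from a stretch of the Sprr2b window that lies 6 bases before a TATA match and 85 before the window's end. The Sprr2a2 window thus stops short of the place where Sprr2b has that match, and what a window holds depends on the annotated start. Of 12 Sprr windows, 9 held an AP-1 match, 9 a TATA match and 2 at least 2 AP-1 matches. Over 32851 mouse promoters of this length, 7.81% held an AP-1 match, 0.460% held at least 2 and 13.6% held a TATA match. The Sprr2 genes are close copies of each other, so the 12 windows are not independent observations. A HIF match (ACGTG or GCGTG) was in 2 of the 12 Sprr windows and in 43.8% of all promoters, and Sprr1a had none. None of the 3 keratin windows matched (Krt7, Krt8 and Krt18) held an AP-1 match. Of them Krt18 held 2 HIF matches (GCGTG) and Krt7 and Krt8 held none. Krt19 had no promoter entry, so its promoter was not searched. These matches describe letters in a window, and binding was not measured.

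Values are FPKM, fragments scaled by the length of the transcript and by the mapped fragments of the library, so levels of different genes are compared per length. The 12 libraries summed to between 530452 and 633597 FPKM, and the number of fragments behind each value is unknown. DMSO hypoxia replicate 1 stood apart: it had the highest total, against at most 557779 in the other libraries. Relative to the rest of its group, its log2(FPKM + 1) values differed by a median of 0.15 in the shortest of 5 classes of transcript length and by -0.20 in the longest. Sprr1a and Krt19 both lie in class 2 from the short end, where the median difference was 0.14. In that library they stood 0.33 (Sprr1a) and 0.22 (Krt19) above the rest of the group, so each of their results that uses it is also given without it.

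Germ cell markers were present in part. Of 18 spermatogonial markers 9 had a row, with a summed level of 41.7 to 56.0 FPKM per library, carried by Uchl1, Gfra1 and Ccnd2. Gfra1, a receptor of undifferentiated spermatogonia, had a mean of 5.58 FPKM in DMSO normoxia. Other markers, picked after their values were seen, were near 0: Kit reached at most 0.04 FPKM, Ddx4 0.06 and Id4 0.15, and Stra8, Zbtb16, Dazl and Sall4 had no row. Of 18 spermatocyte and spermatid markers 7 had a row, and together they made 0.35 to 1.28 FPKM. The summed level was 77.7 to 96.8 for Sertoli cell markers (13 of 16 with a row), 20.8 to 37.7 for Leydig cell markers (5 of 9) and 9.28 to 14.5 for macrophage and leukocyte markers (5 of 8). Peritubular and fibroblast markers (8 of 9) summed to 32.8 to 67.4 FPKM in the DMSO libraries and to 398 to 467 in the MLN4924 libraries, mainly Acta2. This list was higher with the inhibitor, where Sprr1a was lower, and its part in the results was not tested. In bulk RNA, fewer cells that make a transcript and less transcript per cell cannot be told apart.

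Sprr1a was a mid-to-high level transcript in these cells, was highest under hypoxia in DMSO and was low in both MLN4924 groups. In DMSO normoxia its level was 47.88, 46.22 and 47.95 FPKM in replicates 1 to 3 (mean 47.4 ± 0.979, SD, n = 3). In DMSO hypoxia it was 224.43, 174.42 and 182.05 FPKM (193.6 ± 26.9, n = 3). Every hypoxia library lay far above every normoxia library, and the mean moved from the 86.5 to the 96.6 percentile of the tested genes. In MLN4924 normoxia the level was 9.99, 13.98 and 11.07 FPKM (11.7 ± 2.06, n = 3). In MLN4924 hypoxia it was 16.30, 17.13 and 12.44 FPKM (15.3 ± 2.50, n = 3). These 6 libraries all lay under the lowest DMSO library, and the hypoxia and normoxia values overlapped among them.

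Krt19, a type I keratin of ductal and other simple epithelia, was low in both normoxia groups and high in both hypoxia groups. In DMSO normoxia it was 3.86, 4.12 and 4.53 FPKM (4.17 ± 0.338, n = 3). In DMSO hypoxia it was 49.98, 41.71 and 43.80 FPKM (45.2 ± 4.30, n = 3). Its mean percentile among tested genes was 29.5 in the first group and 85.8 in the second. In MLN4924 normoxia it was 4.93, 3.71 and 6.33 FPKM (4.99 ± 1.31, n = 3). In MLN4924 hypoxia it was 31.73, 29.95 and 31.74 FPKM (31.1 ± 1.03, n = 3). The 2 normoxia groups overlapped, and the MLN4924 hypoxia libraries lay between them and the DMSO hypoxia libraries without touching either.

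The type II partner Krt8 and the type I keratin Krt18 were near 0 throughout. Krt8 lay between 0 and 0.13 FPKM and Krt18 between 0 and 0.14, with all DMSO normoxia libraries of Krt18 at 0. Such values are common in the table: 5365 of its rows, or 21.7%, never exceeded the highest value of Krt18. Krt7 had no row. Krt8 and Krt18 did not reach 1 FPKM in 3 libraries, so they were not tested, and their 4 groups overlapped apart from Krt18 in DMSO, where 0.05 to 0.14 under hypoxia stood against 0 under normoxia.

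**Figure D1:**
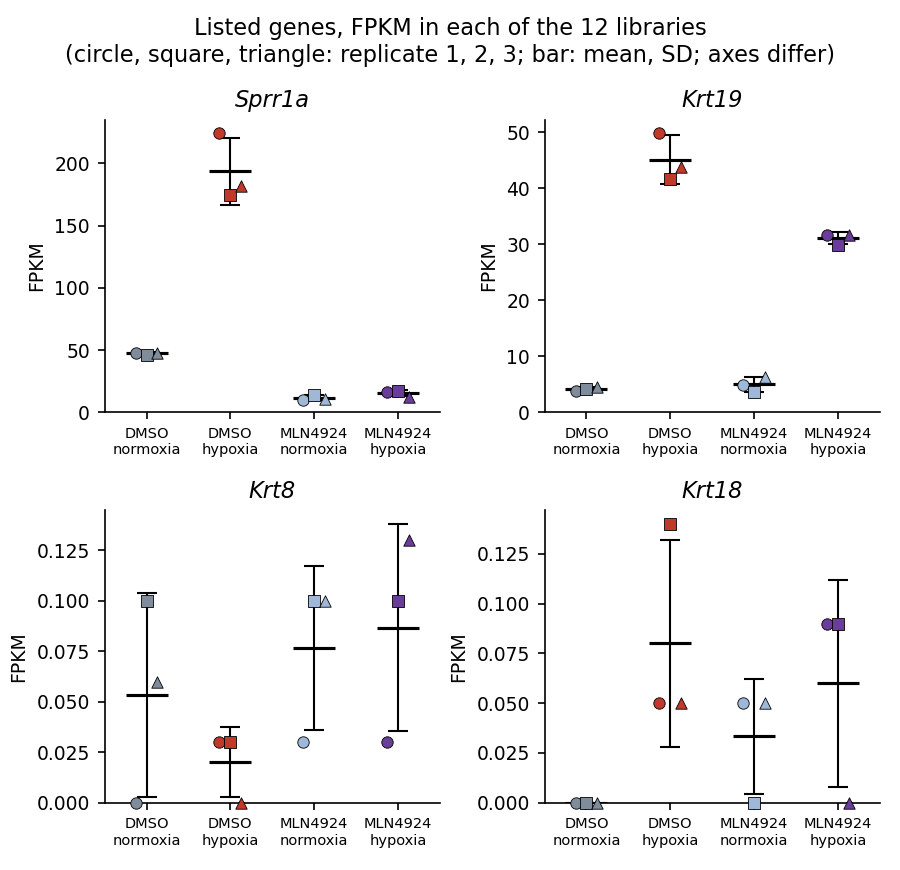
FPKM of the 4 listed genes with a row, by group, with 1 point per library (circle, square and triangle for replicates 1, 2 and 3), bars at the mean and whiskers of 1 SD; each panel has its own axis. Sprr1a ran from 174 to 224 FPKM in DMSO hypoxia and no higher than 17.13 with MLN4924, Krt19 was high in both hypoxia groups, and Krt8 and Krt18 stayed at or under 0.14.

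The response to hypoxia without the inhibitor is a difference used to choose the genes. Sprr1a was 4.09 times as high under hypoxia, by 2.00 ± 0.14 (SE) on the log2(FPKM + 1) scale, and 3.76 times as high (1.89 on the same scale) without DMSO hypoxia replicate 1. Krt19 was 10.8 times as high, a log2 difference of 3.16 ± 0.14, and 10.3 times as high (3.08) without that library. On this contrast 13.8% of the 12311 tested genes rose and 19.4% fell at an adjusted p under 0.05 (limma, Benjamini-Hochberg), 33.2% in all. Under median-of-ratios scaling 2085 genes rose and 1950 fell, against 1700 and 2393 with the values as deposited.

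With the inhibitor under normoxia, Sprr1a was at 24.7% of its DMSO level, a log2 difference of -1.94 ± 0.14, and it was lower in all 3 MLN4924 libraries than in any DMSO library. Krt19, which was not chosen on this difference, did not pass the test (limma, 0.19 ± 0.14, 95% interval -0.12 to 0.50, adjusted p = 0.393). Of all tested genes 9.33% rose and 10.7% fell, 20.0% in all. Under hypoxia Sprr1a with MLN4924 was at 7.90% of its DMSO level (-3.58 ± 0.14), or 8.58% (-3.47) without DMSO hypoxia replicate 1. Krt19 was at 68.9% (-0.52 ± 0.14), or 72.8% (-0.45) without that library. Here 12.2% of all tested genes rose and 13.3% fell, 25.5% in all.

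In the presence of MLN4924, Krt19 was 6.24 times as high under hypoxia in mean FPKM, a log2 difference of 2.45 ± 0.14 (95% interval 2.14 to 2.75), with every hypoxia library above every normoxia library. Sprr1a was 1.31 times as high, a log2 difference of 0.36 ± 0.14 (95% interval 0.05 to 0.68). With 1 library left out this difference lay between 0.26 and 0.49, and the 2 groups overlapped. Among the tested genes 11.7% rose and 16.5% fell, 28.2% in all. The hypoxia difference with MLN4924 minus that with DMSO was -1.64 ± 0.20 for Sprr1a (-1.53 without DMSO hypoxia replicate 1) and -0.71 ± 0.20 for Krt19 (-0.64 without it). Over the 12 libraries the 2 genes had a Pearson r of 0.453 on the log2(FPKM + 1) scale, and 0.326 without DMSO hypoxia replicate 1.

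**Figure D2:**
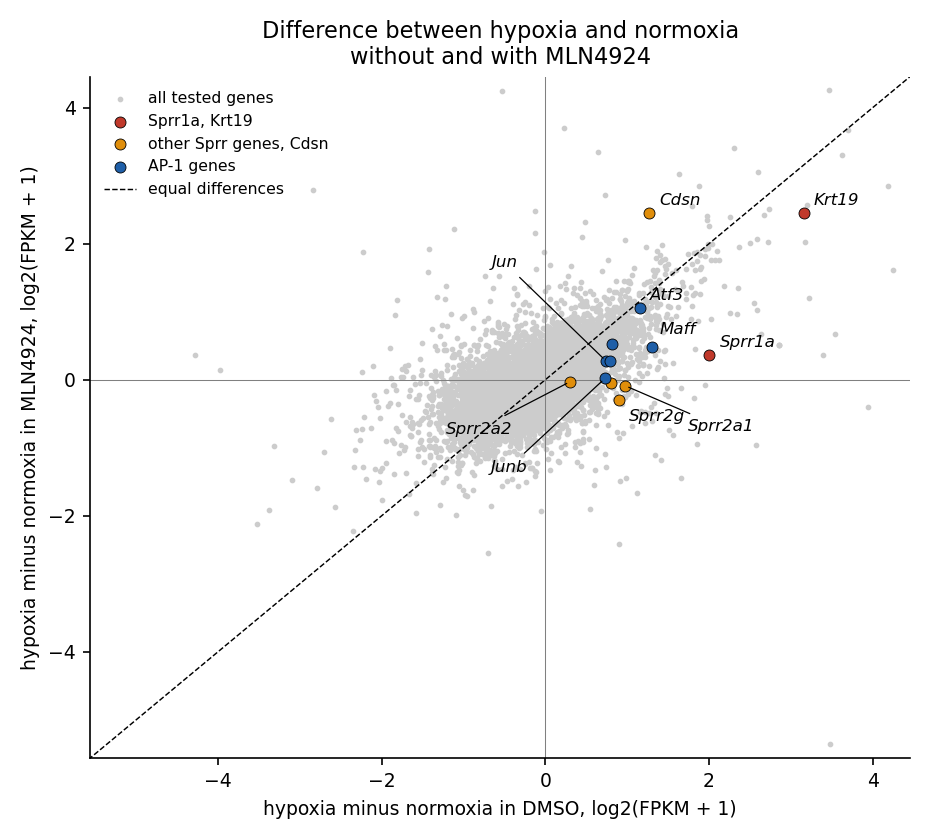
Difference between hypoxia and normoxia in DMSO (x axis) and in MLN4924 (y axis), both on the log2(FPKM + 1) scale, for each tested gene; colours mark Sprr1a and Krt19, the other Sprr genes with Cdsn, and AP-1 genes, and the dashed line marks equal differences. Krt19 lies at 3.16 and 2.45, whereas Sprr1a lies at 2.00 and 0.36, far under the dashed line; the axes share no library.

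Among keratins, Krt19 stood alone in level. Of 15 keratin genes with a row, 11 of type I and 4 of type II, 10 stayed under 1 FPKM in every library and 9 under 0.15. Type II keratins together made 0.53 to 1.69 FPKM per library, so under hypoxia the Krt19 transcript had no type II transcript near its own level. Krt19 took 31.7% to 55.6% of the summed keratin FPKM in normoxia libraries and 81.6% to 92.6% in hypoxia libraries. In DMSO the summed type I keratins other than Krt19 were 3.12 to 4.47 FPKM under normoxia and 1.80 to 4.85 under hypoxia, so those groups overlapped. Of the other 12 keratins in the table, Krt10, Krt13 and Krt80 were tested, and in the 5 contrasts 0 passed by limma; their median log2 difference was -0.13 for hypoxia in DMSO and 0.28 for MLN4924 under hypoxia. At an unadjusted p under 0.05 the count was 1 for MLN4924 under normoxia, 1 for hypoxia with MLN4924 and 0 for the others. Krt10, a type I keratin of the upper epidermis, passed without DMSO hypoxia replicate 1, with -0.84 for hypoxia in DMSO (limma, adjusted p = 0.0488) and 0.95 for MLN4924 under hypoxia (0.0353, limma). Beside Krt19 on the chromosome, in RefSeq order, Krt13 lay between 0.34 and 3.1 FPKM and Krt16 between 0.25 and 1.21. Krt14 lay at most at 0.49, Krt36 at 0.08 and Krt17 at 0.04, while Krt35, Krt15 and Krt9 had no row.

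**Figure D3:**
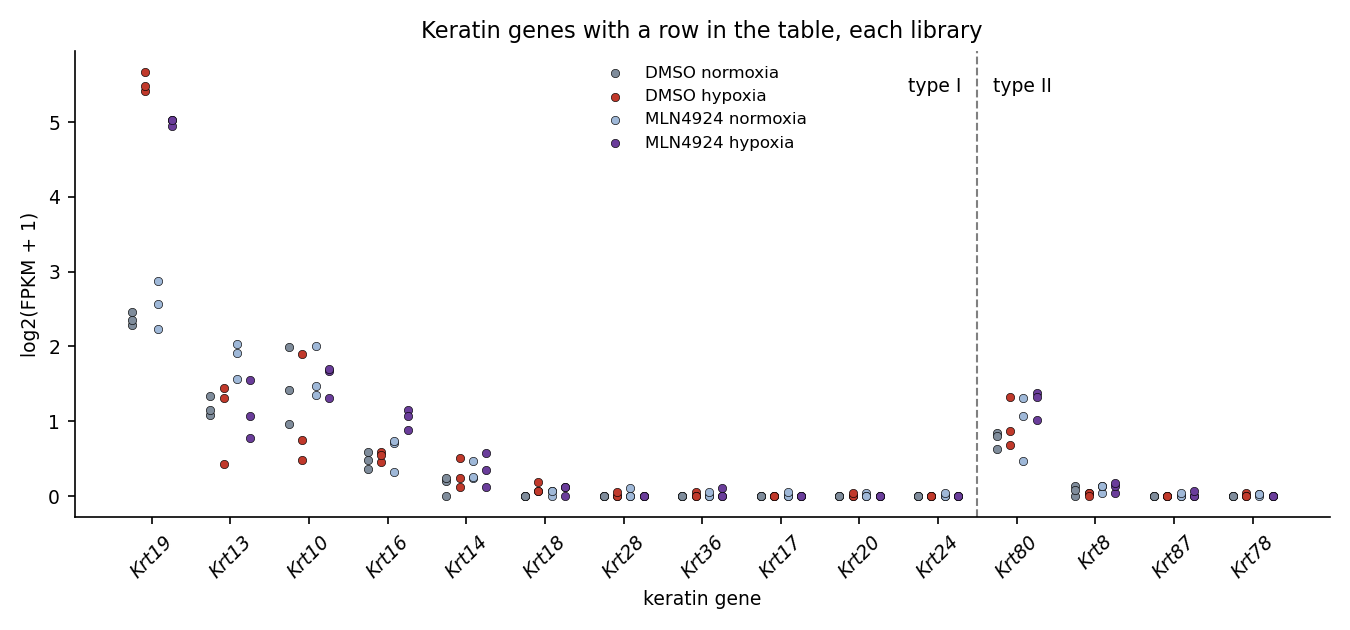
Levels of the 15 keratin genes with a row, as log2(FPKM + 1), with 1 point per library coloured by group; the dashed line separates type I from type II genes. Krt19 in the hypoxia groups lies above every other point, and no type II gene comes near it.

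The other small proline-rich genes were lower than Sprr1a. Of 14 Sprr genes with a row, Sprr1a among them, 9 stayed under 1 FPKM in every library and 5 were tested. The gene next to Sprr1a in the RefSeq order with a row, Sprr1b, reached 0.10 FPKM in 1 library and was at 0 in the other 11, and Ivl, which encodes the envelope protein involucrin, reached 0.07. Sprr3 and Sprr4, also beside Sprr1a, had no row. The Sprr2 genes are close copies of each other, so the assignment of reads among them is uncertain.

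Sprr2a1 was 1.34, 1.45 and 1.48 FPKM in DMSO normoxia, 2.75, 4.30 and 4.40 in DMSO hypoxia, 0.73, 0.58 and 0.60 in MLN4924 normoxia and 0.57, 0.51 and 0.54 in MLN4924 hypoxia. The DMSO hypoxia libraries were highest and both MLN4924 groups were under every DMSO library. It rose with hypoxia in DMSO by 0.97 ± 0.14 on the log2(FPKM + 1) scale (limma, adjusted p = 0.000521) and fell with MLN4924 by 0.57 under normoxia (0.0175, limma) and by 1.63 under hypoxia (3.38e-05, limma). The call under normoxia ended when any of 4 libraries was left out, with adjusted p (limma) of 0.0544 without DMSO normoxia replicate 2, 0.0586 without DMSO normoxia replicate 3, 0.0584 without MLN4924 normoxia replicate 2 and 0.0563 without MLN4924 normoxia replicate 3. Under MLN4924 it did not pass between hypoxia and normoxia (-0.09 ± 0.14, adjusted p = 0.699, limma).

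Sprr2a2 was higher, at 8.54, 9.33 and 10.76 FPKM in DMSO normoxia, 11.04, 12.03 and 12.96 in DMSO hypoxia, 3.59, 1.08 and 2.68 in MLN4924 normoxia and 1.13, 3.15 and 2.76 in MLN4924 hypoxia. All DMSO libraries lay above all MLN4924 libraries. It fell with MLN4924 by 1.68 ± 0.30 under normoxia (limma, adjusted p = 0.00283) and by 2.01 ± 0.30 under hypoxia (0.000841, limma), while hypoxia in DMSO did not pass (0.31 ± 0.30, 0.454, limma).

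Sprr2h was 1.56, 0.93 and 0.58 FPKM in DMSO normoxia, 2.58, 2.63 and 2.22 in DMSO hypoxia, and 0.12 to 0.47 in the 6 MLN4924 libraries. Sprr2g reached 1 FPKM only in DMSO hypoxia, where it was 2.43, 1.46 and 2.41, and it was at 0 in the 3 MLN4924 hypoxia libraries. Both genes entered the tests through DMSO hypoxia, the group where they are highest (Sprr2h reached 1 FPKM in 1 library elsewhere), so no p is given for them.

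Other cornified envelope genes did not share one direction. Cdsn, which encodes the adhesion protein corneodesmosin, had group means of 2.76 in DMSO normoxia, 8.14 in DMSO hypoxia, 2.93 in MLN4924 normoxia and 20.5 FPKM in MLN4924 hypoxia. It rose with hypoxia in DMSO by 1.27 ± 0.13 and in MLN4924 by 2.45 ± 0.13 (limma, adjusted p = 5.04e-05 and 8.06e-07). Its level with MLN4924 under hypoxia was above that with DMSO, the opposite of Sprr1a and the Sprr2 genes (1.25 ± 0.13, limma, adjusted p = 9.32e-05). Anxa1, an annexin of the envelope and of many other cells, rose with hypoxia in DMSO from 176 ± 1.19 to 281 ± 53.0 FPKM. Tgm2, tissue transglutaminase, fell with MLN4924 under normoxia from 5.79 to 2.86 FPKM (-0.82 ± 0.09, limma, adjusted p = 0.000197). Lce3c, a late cornified envelope gene, was at 0 in every DMSO library and had means of 1.79 and 0.847 FPKM in MLN4924 normoxia and hypoxia.

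Of 44 listed cornified envelope and small proline-rich genes other than Sprr1a, 34 had a row and 12 were tested. Sprr2g, Sprr2h and Lce3c were tested only through the group where each is highest and are left out of the counts, which leaves 9. With hypoxia in DMSO 3 rose and 1 fell, also without DMSO hypoxia replicate 1, with a median log2 difference of 0.31 against -0.08 over all tested genes. With MLN4924 under normoxia 2 rose and 3 fell, again also without that library, with a median of -0.11 against -0.03. With MLN4924 under hypoxia 2 rose and 5 fell (4 and 5 without it), and the median was -0.49 against -0.01. With hypoxia in MLN4924 2 rose and 0 fell (2 and 2), with a median of -0.03 against -0.05. The shares of all genes called in these contrasts were 33.2%, 20.0%, 25.5% and 28.2%.

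**Figure D4:**
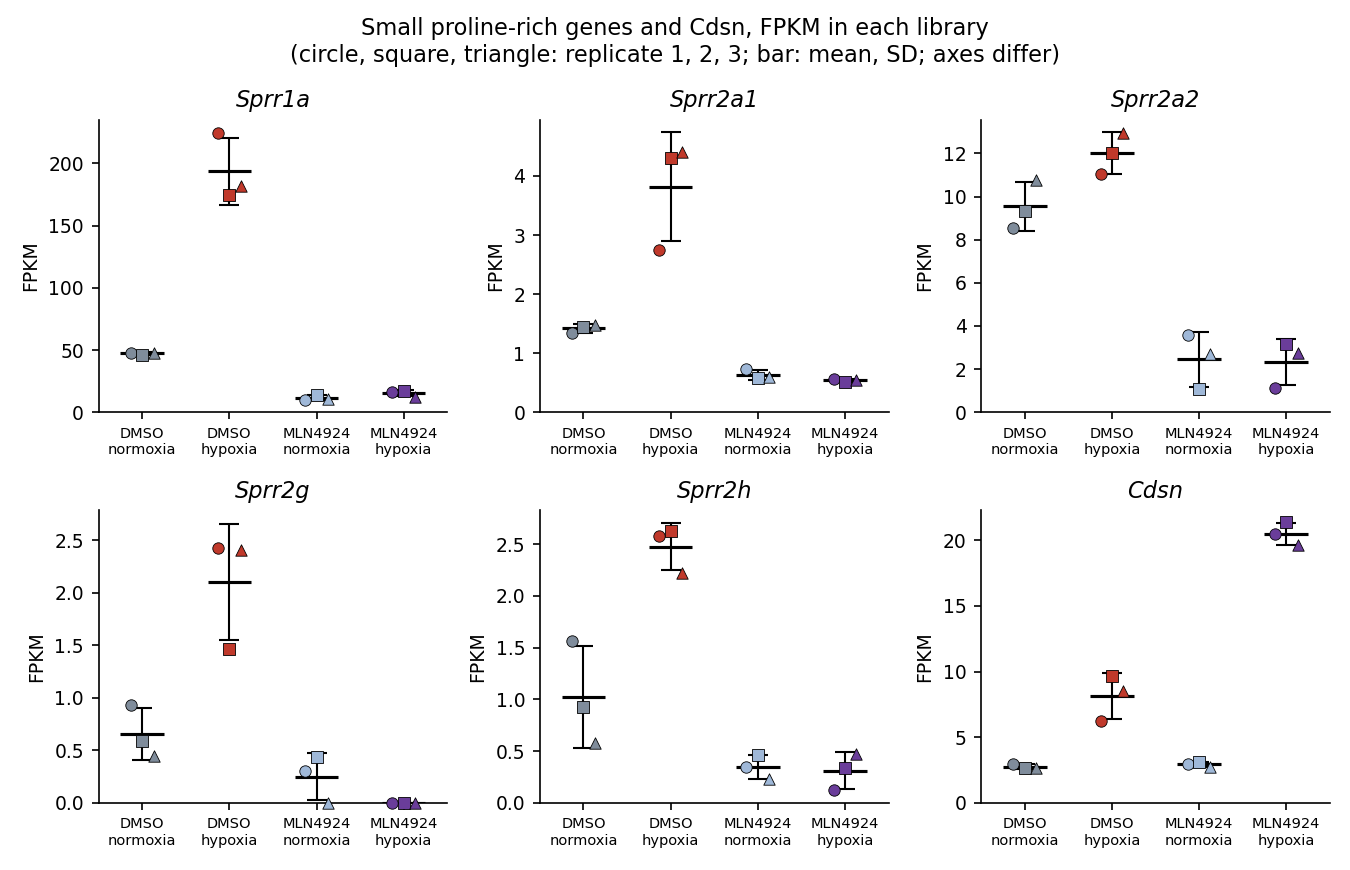
FPKM of Sprr1a, the 4 tested Sprr2 genes and Cdsn by group, with 1 point per library (circle, square and triangle for replicates 1, 2 and 3), bars at the mean and whiskers of 1 SD; each panel has its own axis. Sprr1a and the Sprr2 genes are low in both MLN4924 groups, whereas Cdsn is highest in MLN4924 hypoxia, with a mean of 20.5 FPKM.

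For these genes, which are not among the 5 members, the change in the hypoxia response was tested. Their list was drawn up with earlier results of these data known, so these tests are not independent of the data. The hypoxia difference with MLN4924 minus that with DMSO was -1.06 ± 0.20 for Sprr2a1 (limma, adjusted p = 0.0273) and 1.19 ± 0.18 for Cdsn (0.0104, limma). The call of Sprr2a1 ended in 10 of the 12 fits that left out 1 library, whereas that of Cdsn held in all 12. Sprr2a2 did not pass (-0.33 ± 0.42, 0.740, limma). Over all tested genes 0.958% passed upward and 0.926% downward, 1.88% in all. In the cornified envelope list 1 of 9 passed upward and 1 downward, Sprr2g, Sprr2h and Lce3c left out.

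Genes of the AP-1 family and of gp130 signalling, the receptor pathway of interleukin-6 type cytokines, moved in several directions. Junb, a Jun family subunit, was 170 ± 4.43 FPKM in DMSO normoxia, 284 ± 25.2 in DMSO hypoxia, 136 ± 2.62 in MLN4924 normoxia and 138 ± 3.41 in MLN4924 hypoxia. It rose with hypoxia in DMSO by 0.73 ± 0.06 (limma, adjusted p = 1.73e-05) and fell with MLN4924 by 0.32 under normoxia (0.00480, limma) and by 1.03 under hypoxia (3.22e-06, limma). With MLN4924 its hypoxia difference was 0.02 ± 0.06 (0.858, limma), and the change of the response was -0.71 ± 0.09 (0.00401, limma). Thus its order of groups was that of Sprr1a, with smaller differences.

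Jun, the founding subunit, had means of 20.1, 34.2, 31.7 and 38.6 FPKM in DMSO normoxia, DMSO hypoxia, MLN4924 normoxia and MLN4924 hypoxia. It rose with hypoxia in DMSO (0.74 ± 0.05, limma, adjusted p = 5.85e-06) and, unlike Junb and Sprr1a, with MLN4924 under normoxia (0.64 ± 0.05, limma, adjusted p = 3.04e-05). Its response to hypoxia was smaller with MLN4924, by -0.47 ± 0.08 (0.0151, limma), a call that ended after rescaling to TPM (-0.40, 0.0953, limma) and without MLN4924 normoxia replicate 3 (0.0539, limma). Maff, a small Maf protein, had means of 15.3, 39.2, 20.9 and 29.6 FPKM in the same order, and its response was smaller by -0.81 ± 0.14 (0.0155, limma; 0.0539 without MLN4924 normoxia replicate 3, limma).

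Atf3, a stress-induced partner of Jun proteins, rose in each of the 4 pairwise contrasts, from a mean of 2.35 FPKM in DMSO normoxia to 13.2 in MLN4924 hypoxia. Its log2 differences lay between 0.94 and 1.15, with a largest adjusted p of 0.000378 (limma). Fosl1, a Fos family subunit, had means of 17.3, 15.9, 37.0 and 17.9 FPKM, rose with MLN4924 under normoxia (1.06 ± 0.14, limma, adjusted p = 0.000531) and fell with hypoxia in MLN4924 (-1.02 ± 0.14, limma, adjusted p = 0.000543). Lif, a gp130 cytokine, had means of 0.213, 2.11, 0.463 and 1.59 FPKM and rose with hypoxia in DMSO (1.35 ± 0.25, limma, adjusted p = 0.00236). Stat3, the main transcription factor under gp130, fell with hypoxia in DMSO and with MLN4924 under normoxia, with means of 53.3, 40.5, 34.0 and 27.9 FPKM.

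Of 39 listed gp130 and AP-1 genes 37 had a row and 32 were tested. Ereg reached 1 FPKM in 2 libraries of MLN4924 normoxia, where it is highest, and in 1 elsewhere. It is left out of the counts, which leaves 31. With hypoxia in DMSO 11 rose and 5 fell (13 and 6 without DMSO hypoxia replicate 1). With MLN4924 9 rose and 6 fell under normoxia (10 and 9), and 8 rose and 5 fell under hypoxia (9 and 6). With hypoxia in MLN4924 9 rose and 5 fell (10 and 7). Over all tested genes 33.2%, 20.0%, 25.5% and 28.2% were called in these contrasts. The median log2 differences were 0.05, 0.05, 0.03 and 0.09 in the same order, against -0.08, -0.03, -0.01 and -0.05 over all tested genes. For the change of the hypoxia response 2 passed upward, among them Ets2, and 3 downward, Jun, Junb and Maff. Over all tested genes 0.958% passed that test upward and 0.926% downward.

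**Figure D5:**
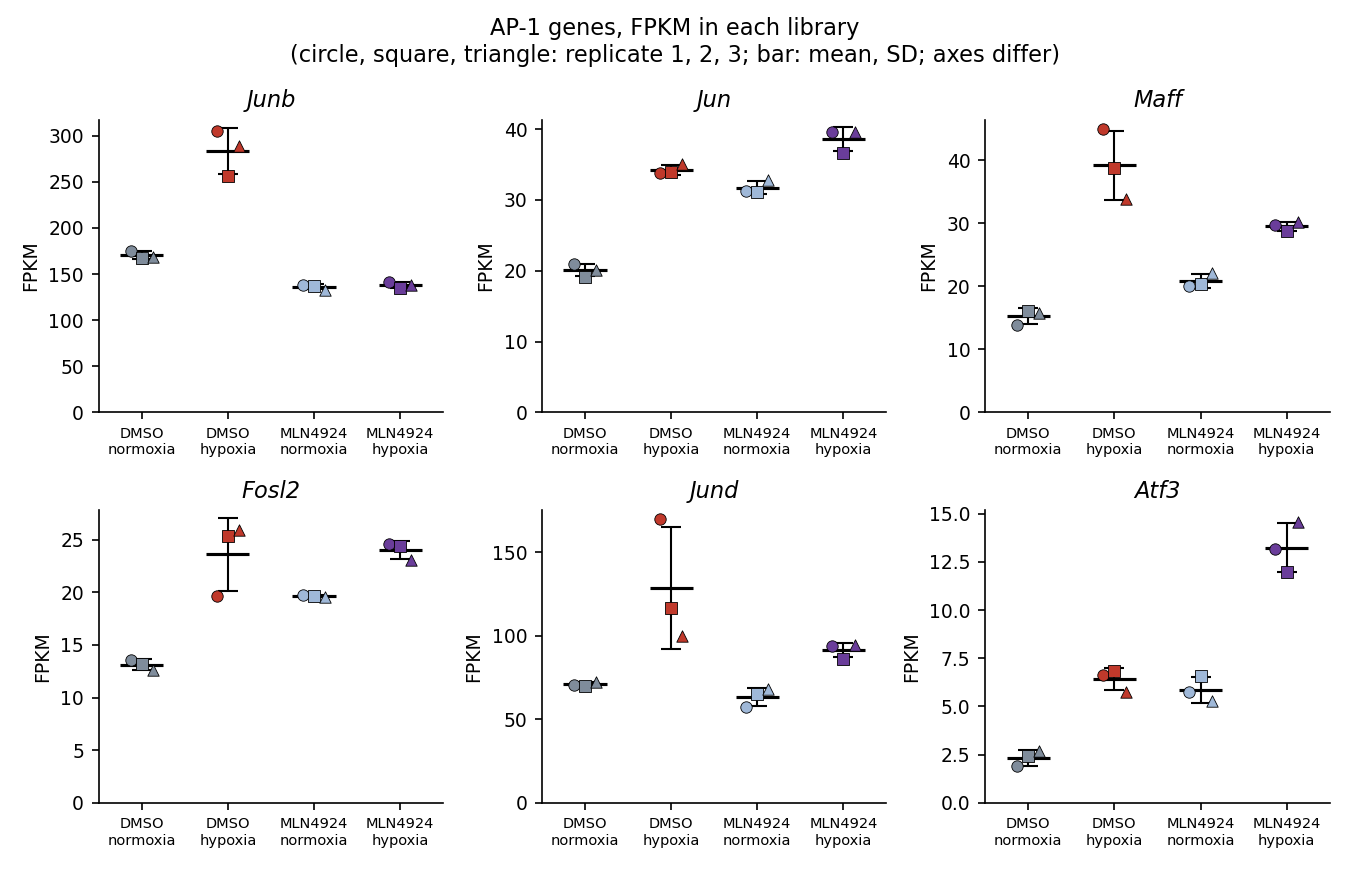
FPKM of 6 AP-1 genes by group, with 1 point per library (circle, square and triangle for replicates 1, 2 and 3), bars at the mean and whiskers of 1 SD; each panel has its own axis. Junb is highest in DMSO hypoxia (284 FPKM) and low in both MLN4924 groups (136 and 138), whereas Atf3 is highest in MLN4924 hypoxia (13.2).

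Genes that injured tissue switches on with Sprr1a were also listed, 30 in all, of which 24 had a row and 15 were tested. With hypoxia in DMSO 7 rose and 2 fell (7 and 3 without DMSO hypoxia replicate 1), and with hypoxia in MLN4924 7 rose and 5 fell (7 and 6). With MLN4924 9 rose and 2 fell under normoxia (13 and 2) and 8 rose and 1 fell under hypoxia (9 and 1). Over all genes hypoxia gave 13.8% up and 19.4% down in DMSO and 11.7% and 16.5% in MLN4924. MLN4924 gave 9.33% up and 10.7% down under normoxia and 12.2% and 13.3% under hypoxia. Without DMSO hypoxia replicate 1 all calls for MLN4924 under normoxia went from 2467 to 4212. The medians in these 4 contrasts, in this order, were 0.16, 0.27, 0.44 and 0.29, against -0.08, -0.05, -0.03 and -0.01 over all tested genes. For the change of the hypoxia response 1 of 15 passed, Jun, which is in both lists, against 1.88% of all tested genes. Ankrd1, a cardiac and muscle ankyrin repeat protein, rose with MLN4924 from 34.5 to 131 FPKM under normoxia (1.90 ± 0.07, limma, adjusted p = 5.97e-08) and from 40.2 to 170 under hypoxia (2.06 ± 0.07, limma, adjusted p = 2.55e-08). Gap43, a growth cone protein of regenerating axons, rose with MLN4924 from 1.34 to 4.93 and from 1.62 to 4.82 FPKM.

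Of the genes of epithelial cells, some were near 0 and others rose with hypoxia. Those near 0 were picked after their values were seen: Cdh1, which encodes E-cadherin, lay between 0.04 and 0.35 FPKM, the epithelial transcription factor gene Grhl2 reached 0.13 and Elf3 0.03, and Epcam had no row. Of 42 epithelial junction and identity genes 32 had a row and 12 were tested, and Lamb3, tested only through DMSO hypoxia, is left out of the counts. With hypoxia in DMSO 2 of 11 rose and 2 fell (3 and 2 without DMSO hypoxia replicate 1), and with hypoxia in MLN4924 3 rose and 0 fell (3 and 2). With MLN4924 3 rose and 3 fell under normoxia (3 and 5) and 3 rose and 1 fell under hypoxia (3 and 3). Over all tested genes 33.2%, 28.2%, 20.0% and 25.5% were called in these 4 contrasts. The medians were 0.06 and 0.11 for hypoxia in DMSO and in MLN4924, against -0.08 and -0.05 over all genes, and -0.23 and -0.11 for MLN4924 under normoxia and hypoxia, against -0.03 and -0.01. For the change of the hypoxia response 0 of 11 passed by limma, against 1.88% of all tested genes, and 1 passed without DMSO hypoxia replicate 1. Of all 12, 3 had an unadjusted p under 0.05.

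F11r, a tight junction adhesion protein, had means of 52.5, 65.8, 41.3 and 61.0 FPKM in DMSO normoxia, DMSO hypoxia, MLN4924 normoxia and MLN4924 hypoxia, and rose with hypoxia in DMSO (0.32 ± 0.05, limma, adjusted p = 0.00143) and in MLN4924 (0.55 ± 0.05, limma, adjusted p = 5.68e-05). Klf4, a zinc finger factor of surface epithelia and other tissues, had means of 18.6, 23.7, 14.7 and 21.6 FPKM and rose with hypoxia in DMSO (0.33 ± 0.08, limma, adjusted p = 0.00779; 0.0763 after rescaling to TPM) and in MLN4924 (0.53 ± 0.08, limma, adjusted p = 0.000624). Cdh3, which encodes P-cadherin, rose with MLN4924 under hypoxia from 8.97 to 20.8 FPKM. Lamb3, a laminin chain of the epithelial basement membrane, had means of 0.897, 3.09, 0.0900 and 0.657 FPKM, but it reached 1 FPKM in DMSO hypoxia alone.

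Mesenchymal genes were at far higher levels. The 25 of 26 with a row summed to 3366 to 5497 FPKM per library, against 119 to 164 for the epithelial list, and 22 were tested. With hypoxia in DMSO 7 rose and 5 fell (9 and 6 without DMSO hypoxia replicate 1), and with hypoxia in MLN4924 6 rose and 3 fell (8 and 4). With MLN4924 3 rose and 9 fell under normoxia (6 and 11), and 4 rose and 9 fell under hypoxia (4 and 10). Over all tested genes hypoxia gave 13.8% up and 19.4% down in DMSO and 11.7% and 16.5% in MLN4924. MLN4924 gave 9.33% and 10.7% under normoxia and 12.2% and 13.3% under hypoxia. The medians of the list for MLN4924 were -0.23 and -0.20, against -0.03 and -0.01 over all tested genes. For hypoxia they were 0.06 in DMSO and 0.05 in MLN4924, against -0.08 and -0.05. For the change of the hypoxia response 1 of 22 passed, Mmp2, against 1.88% of all tested genes. Snai1, a repressor of E-cadherin, fell with MLN4924 from 18.9 to 9.79 FPKM under normoxia and from 18.6 to 10.1 under hypoxia. Other genes of the list went the other way. The 4 that rose with MLN4924 under hypoxia were Fn1, Cdh11, Snai2 and Cdh2. Their log2 differences were 1.34 (0.72 without DMSO hypoxia replicate 1), 0.81, 0.62 and 0.48.

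Vim, which encodes vimentin, the type III filament protein of mesenchymal cells, was the main intermediate filament transcript with 739, 758 and 730 FPKM in the DMSO normoxia libraries and 1471, 1124 and 1125 in the DMSO hypoxia libraries. The groups did not overlap, and DMSO hypoxia replicate 1 was the highest. Vim rose with hypoxia in DMSO by 0.73 ± 0.09 (limma, adjusted p = 0.000243), and its mean in MLN4924 hypoxia, 755 FPKM, was lower than in DMSO hypoxia (-0.70 ± 0.09, limma, adjusted p = 0.000441). Of 34 listed intermediate filament partners and linkers 17 were tested, 1 of them, Prph, only through DMSO hypoxia, which leaves 16. With hypoxia in DMSO 3 rose and 4 fell (5 and 5 without DMSO hypoxia replicate 1), and in MLN4924 5 rose and 3 fell (6 and 4). With MLN4924 1 rose and 3 fell under normoxia (2 and 4), and 1 rose and 4 fell under hypoxia (1 and 3). Over all tested genes 33.2%, 28.2%, 20.0% and 25.5% were called in these 4 contrasts. The medians for hypoxia were -0.23 in DMSO and 0.17 in MLN4924, against -0.08 and -0.05 over all tested genes. That for MLN4924 under normoxia was -0.03, against -0.03. For the change of the hypoxia response 0 of the 17 passed by limma, against 1.88% of all tested genes. Of the 17, 5 had an unadjusted p under 0.05 and 3 passed without DMSO hypoxia replicate 1. Jup, plakoglobin of desmosomes, fell with hypoxia in DMSO from 35.9 to 21.5 FPKM (-0.71 ± 0.10, limma, adjusted p = 0.000454), and Pkp2, plakophilin 2, rose from 12.2 to 18.2 (0.54 ± 0.08, limma, adjusted p = 0.000550).

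The genes most like Sprr1a and Krt19 over the 12 libraries were ranked by Pearson r on the log2(FPKM + 1) scale, among 8825 genes with a mean of at least 5 FPKM in a group. All points share the same 12 libraries and 4 groups. For Sprr1a they included P3h4 (r = 0.988), Papss1 (0.978), Cdc42ep2 (0.975) and Junb (0.973). P3h4, which encodes a protein of collagen modification in the endoplasmic reticulum, had means of 46.0 ± 1.81, 57.1 ± 2.21, 32.5 ± 1.02 and 33.8 ± 1.61 FPKM in DMSO normoxia, DMSO hypoxia, MLN4924 normoxia and MLN4924 hypoxia. Its order of groups was that of Sprr1a, over a far smaller range. Without DMSO hypoxia replicate 1 these 4 genes ranked 2, 4, 6 and 7. For Krt19 they were Ccng2, which encodes cyclin G2 (r = 0.994), Me2, a mitochondrial malic enzyme (0.992), and Prelid2 (0.991), and these also ranked 1, 2 and 3 without that library. Ccng2 had means of 9.28 ± 0.138, 67.1 ± 10.4, 10.1 ± 0.473 and 44.5 ± 1.38 FPKM, high in both hypoxia groups as Krt19 was.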

How the data were processed

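The authors' deposited table gave FPKM per gene symbol, 1 column per library (12), rounded to 2 decimals. Reads were paired-end, per the labels, and the submitters' processing notes name fastp, STAR, RSEM 1.3.3 and genome build mm39; the annotation and any filter are not given in the sources used here. FPKM depends on transcript length and library composition and carries no counts, so depth and counting error are unknown. All columns were used. The 12311 genes that reached 1 FPKM in 3 or more libraries were fitted as log2(FPKM + 1) in limma (version 3.58.1, R 4.3.3), using all 12 libraries, group means and an intensity trend. Two-sided p-values were Benjamini-Hochberg adjusted over all tested genes in each of 5 contrasts, with a threshold of 0.05. The procedure was also run on simulated data that gave each gene an equal spread in every library. That run cannot show how it behaves with a library such as DMSO hypoxia replicate 1. Log2 differences understate the change of genes near 1 FPKM. An exact permutation test of 3 against 3 libraries cannot go below 0.1. Alternatives were the pseudocount, the filter, TPM and median-of-ratios scaling, a replicate block, array weights, only the libraries compared, and leaving out each library.

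The members and the 13 gene lists were chosen with earlier results of these data known. Genes were named by rule: the members, the genes with the highest r to a member (5 for Sprr1a, 3 for a keratin), and up to 4 called genes of each list per contrast with the largest difference and a mean of at least 1 FPKM in a group. Krt10, the genes named as near 0 or without a row, and the further contrasts given for named genes were added after values were seen. Some genes that the rule names are not reported here. Promoters and gene order came from RefSeq on GRCm38.p6, which is not the build of the table, so no position was transferred.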

Additional observations from a re-analysis of the deposited data

Results flagged for a closer look

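Several named genes were flagged because the hypoxia difference with MLN4924 differed from that with DMSO. The limma test of the difference itself was used (log2(FPKM + 1) scale, adjusted p under 0.05). The hypoxia difference was more negative with MLN4924 for Sprr2a1 (-1.06), Maff (-0.81), Junb (-0.71) and Jun (-0.47). It was more positive for Cdsn (1.19), the transcription factor gene Ets2 (0.51) and the matrix metalloproteinase gene Mmp2 (0.38). Sprr2g (-1.20) entered the tests only through DMSO hypoxia, the group where it is highest. Its value is therefore a description, and no call is counted for it. With 1 library left out, the call ended in 10 of 12 fits for Sprr2a1, in 9 of 12 for Mmp2 and in 1 of 12 each for Jun and Maff. Junb, Cdsn and Ets2 kept their call in every alternative tried.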

How the results depend on the processing

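With each library left out in turn, the log2 difference of Sprr1a lay between -2.07 and -1.85 for MLN4924 under normoxia and between 0.26 and 0.49 for hypoxia in MLN4924, and that of Krt19 between 2.28 and 2.60 for hypoxia in MLN4924. Sprr1a for hypoxia in MLN4924 was 0.39 after rescaling to TPM, 0.41 with median-of-ratios scaling and 0.33 with array weights. Krt19 for MLN4924 under normoxia passed in no alternative run (0.03 to 0.35 with a library left out). The count of all genes called by limma moved by more than 1.5 times in several fits. With only the 6 libraries compared it was 2288 in place of 4093 (hypoxia in DMSO), 4095 in place of 2467 (MLN4924 under normoxia) and 1290 in place of 3137 (MLN4924 under hypoxia). With array weights it was 4524 (MLN4924 under normoxia), 5339 in place of 3473 (hypoxia in MLN4924) and 843 in place of 232 (change of the hypoxia response). With a library left out it ran from 2996 to 4760 for hypoxia in DMSO, 1650 to 4212 for MLN4924 under normoxia, 2143 to 3982 for MLN4924 under hypoxia, 2524 to 5231 for hypoxia in MLN4924 and 90 to 678 for the change of the response; the values 4212, 5231 and 678 came without DMSO hypoxia replicate 1. The fits on all 4 groups share an estimate of the spread, so DMSO hypoxia replicate 1 also enters the contrasts that do not compare its group. The cause was not tested.

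The replicate block gave 132 genes for the change of the response. Same-numbered libraries did not deviate together (correlations from -0.07 to 0.10). These correlations cannot show whether cultures with the same number were handled together. Of the genes with a changed hypoxia response, Sprr2a1 lost its call without the filter, with TPM and with the block (limma, adjusted p from 0.0556 to 0.0662). Mmp2, Jun and Maff each lost it in at least 1 alternative. No result reversed. Unknown depth limits genes near 1 FPKM most. The tests planned for Krt7, Krt8 and Krt18 were not run because none passed the filter, and those planned for Sprr1a under normoxia with MLN4924, and for Sprr1a and Krt19 with hypoxia in MLN4924, give no p because these differences can have entered the choice.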
